A study of Mus musculus with 6 samples.

Results

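The surface of a lipid droplet carries proteins that decide how fat is stored and released, and 3 families of them were examined here, the perilipins (*Plin1* to *Plin5*), the CIDE proteins (*Cidea*, *Cideb* and *Cidec*) and the FITM proteins (*Fitm1* and *Fitm2*). Membership was by gene symbol, which gave 10 of the 36144 symbols in the authors' gene table. All 10 passed edgeR's default filter on low counts. Bulk RNA-seq was performed on whole inguinal white adipose tissue (iWAT) from 10-week-old female C57BL6/J mice, random-fed on a chow diet. There were 3 Cebpa_fl/fl and 3 Cebpa_ASKO libraries. Every mouse carried the floxed *Cebpa* alleles, and the genotypes, which were littermates, differed in the AdipoQ-Cre transgene, absent from Cebpa_fl/fl (AdipoQ-Cre-) and present in Cebpa_ASKO (AdipoQ-Cre+). *Cebpa* encodes C/EBPα, a transcription factor that drives adipocyte differentiation. AdipoQ-Cre acts in cells that express adiponectin, which begins late in differentiation. Cells of the depot that have never expressed adiponectin keep *Cebpa*. Each library came from 1 mouse. The labels state that both inguinal depots were used and their lymph nodes taken out, whereas the study's methods describe a dissected piece of the depot and do not mention lymph nodes for these samples.

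Fat in an adipocyte is held as triglyceride in droplets bounded by a single layer of phospholipid. Perilipins coat that surface and control which lipases reach it, CIDE proteins sit where droplets touch and pass lipid from the smaller to the larger, and FITM proteins act in the endoplasmic reticulum, where droplets bud. White adipocytes with a large single droplet are known for *Plin1*, *Plin4* and *Cidec*, whereas *Cidea* and *Plin5* are known from brown and oxidative tissues and *Plin2* and *Plin3* from nearly all cells.

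Total estimated counts ranged from 33141769 to 49477671 per library, and every Cebpa_ASKO library was shallower than every Cebpa_fl/fl library. *Cebpa*, on chromosome 7 of GRCm38 from 35119293 to 35121928, had between 448 and 498 CPM (estimated counts scaled to a common library total with edgeR's TMM factors) in Cebpa_fl/fl and between 37.2 and 45.8 CPM in Cebpa_ASKO. The log2 fold change of *Cebpa* was -3.55 (adjusted p = 0.000163). Adjusted p-values are from the quasi-likelihood test of edgeR, with the Benjamini-Hochberg method over 16069 genes, unless another test is named. Of 17 adipocyte markers tested, 8 were lower and 0 higher in Cebpa_ASKO at an adjusted p below 0.05, against 3.84% and 1.39% of all genes tested. Their median log2 fold change was -0.81, and their summed level fell from between 4.66% and 5.62% of counts to between 1.56% and 1.81%. That sum was led by *Cfd* (mean CPM 15450 in Cebpa_fl/fl and 1635 in Cebpa_ASKO), *Car3* (13090 and 3081) and *Fabp4* (8365 and 4608). The markers did not change alike. In CPM 12 of the 17 were lower in every Cebpa_ASKO library, against 13.2% of all genes tested, and the rest overlapped between the genotypes. In whole tissue, a smaller number of adipocytes and less RNA per adipocyte cannot be told apart. Cebpa_fl/fl 1 stood apart in lymphocyte markers, which took 0.0386% of its counts against 0.00381% to 0.00794% in the other 5 libraries. It was also the library with the most *Ucp1*, the uncoupling protein of brown and beige adipocytes, at 733 CPM, while Cebpa_fl/fl 2 had the least, at 19.4 CPM.

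The genes typical of white adipocytes (*Plin1*, *Plin4* and *Cidec*) and *Fitm2* were lower in Cebpa_ASKO iWAT, and the rest of the group, apart from *Cideb*, was higher in every Cebpa_ASKO library without passing the test. *Cidec*, *Plin4*, *Plin1* and *Fitm2* fell, so that 4 of the 10 were called lower at an adjusted p below 0.05, where 5.23% of all genes tested were called and 3.84% were called lower. None was called higher (1.39% of all genes tested), while DESeq2 called 4 higher (*Plin2*, *Plin3*, *Plin5* and *Fitm1*), where it called 3.98% of its genes higher. At an unadjusted p below 0.05 there were 9 of the 10, all but *Cideb*, against 19.8% of all genes tested. The genotypes did not overlap in CPM for 9 genes, 4 lower and 5 higher in Cebpa_ASKO. Of all genes tested 26.1% did not overlap, 13.2% lower and 12.9% higher. The median log2 fold change over the 10 genes was 0.21, and over all genes it was 0.02. Without Cebpa_ASKO 2 the count of called falls was 1, *Cidec*.

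**Figure D1:**
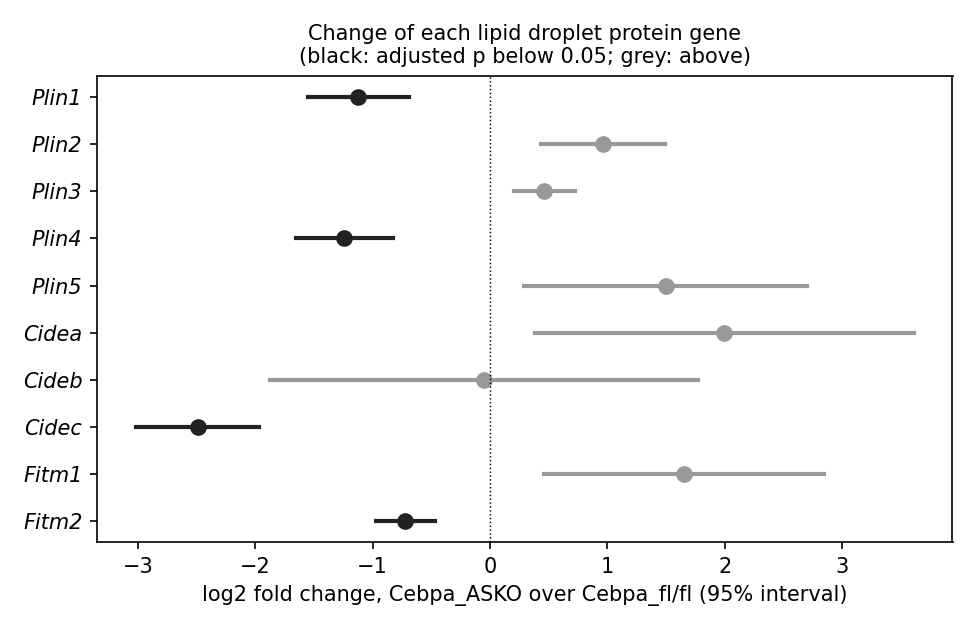
Log2 fold change (Cebpa_ASKO over Cebpa_fl/fl) of each of the 10 genes with its 95% confidence interval, in black where the adjusted p was below 0.05 and in grey where it was not. *Cidec* lies farthest to the left at -2.49, and the intervals of *Cidea* and *Plin5* are wide and lie above 0.

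*Cidec* (also called Fsp27), which enlarges droplets by moving lipid between them, showed the largest change of the 10. It lies on chromosome 6 from 113424634 to 113435760 on the minus strand. In TPM, a unit that corrects for transcript length and so allows levels of different genes to be compared, Cebpa_fl/fl libraries 1 to 3 had 1002, 1642 and 1215, and Cebpa_ASKO libraries 1 to 3 had 225.9, 234.9 and 322.6. The highest Cebpa_ASKO library was well under the lowest control. Mean *Cidec* CPM was 1557 ± 358 in Cebpa_fl/fl and 277 ± 43.4 in Cebpa_ASKO (SD over 3 libraries). This was a log2 fold change of -2.49 (SE 0.221, 95% confidence interval -3.02 to -1.96, adjusted p = 0.00212), and *Cidec* was the only gene of the group that was called in all 17 settings tried.

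*Cidec* is transcribed from a pair of start sites 996 bases apart, and they are shown because their transcripts fell by unequal amounts. The sequences are the 250 bases before each start in RefSeq (GRCm38.p6, minus strand, 5′ to 3′), and capitals mark TTGCNNAA, letters of a C/EBP site (searched on both strands).
Cidec upstream start, chr6:113435761-113436010: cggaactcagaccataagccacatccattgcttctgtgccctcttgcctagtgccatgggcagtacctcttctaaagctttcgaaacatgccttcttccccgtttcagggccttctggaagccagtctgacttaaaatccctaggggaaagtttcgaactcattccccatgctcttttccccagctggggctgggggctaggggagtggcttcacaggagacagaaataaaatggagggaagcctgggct
Cidec downstream start, chr6:113434765-113435014: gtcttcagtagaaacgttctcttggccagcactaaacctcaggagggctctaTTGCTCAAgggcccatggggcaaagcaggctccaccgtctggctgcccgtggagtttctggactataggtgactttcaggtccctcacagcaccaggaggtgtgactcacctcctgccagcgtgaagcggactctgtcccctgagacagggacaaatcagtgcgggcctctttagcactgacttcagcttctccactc
The downstream start, at chr6:113434764, lies within the span of the upstream transcripts. Transcripts Cidec-201 and Cidec-202, from the upstream start, share an open reading frame of 239 codons, and Cidec-203, from the downstream start, has 249 codons. TTGCTCAA stood 198 bases before the downstream start, at chr6:113434955-113434962, and no TTGCNNAA was in the upstream window.

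Upstream *Cidec* transcripts summed to 878, 1566 and 1059 TPM in Cebpa_fl/fl 1 to 3 and to 177.4, 177.3 and 250.3 TPM in Cebpa_ASKO 1 to 3. Their mean in Cebpa_ASKO was 0.173 of that in Cebpa_fl/fl. Downstream transcripts, Cidec-203 and the incomplete model Cidec-204, had 124.7, 75.5 and 155.9 TPM in Cebpa_fl/fl and 48.5, 57.6 and 72.3 TPM in Cebpa_ASKO, a ratio of 0.501. Both groups of transcripts were therefore lower in every Cebpa_ASKO library, the upstream ones by more. The downstream share of *Cidec* TPM was 12.5%, 4.60% and 12.8% in Cebpa_fl/fl and 21.5%, 24.5% and 22.4% in Cebpa_ASKO, with no overlap (p = 0.1 in a two-sided exact permutation test). With 3 libraries against 3, no permutation p can be under 0.1, so none of the shares and ratios tested this way can reach 0.05. In estimated counts, which favour the longer upstream transcripts, the downstream share was 1.69% to 5.05% in Cebpa_fl/fl and 9.37% to 10.9% in Cebpa_ASKO. kallisto divides reads that match several transcripts among them, so these shares are estimates.

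*Cidea*, which does the same droplet work in brown and beige adipocytes and lies on chromosome 18 from 67343604 to 67367785, was instead at its highest in Cebpa_ASKO. Its level was 295, 45.2 and 151 TPM in Cebpa_fl/fl 1 to 3 and 876.5, 718.5 and 479.7 TPM in Cebpa_ASKO 1 to 3. Every Cebpa_ASKO library was above every control, but the controls varied widely (164 ± 125 TPM, SD, n = 3). The log2 fold change was 2.00 (95% confidence interval 0.39 to 3.61) and did not pass (adjusted p = 0.166). It was 2.80 without Cebpa_fl/fl 1 and 1.52 without Cebpa_fl/fl 2, and it was called in 0 of 17 settings.

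The CIDE family was led by *Cidec* in Cebpa_fl/fl and by *Cidea* in Cebpa_ASKO. *Cidec* made up 77.1% to 97.3% of CIDE TPM in Cebpa_fl/fl and 20.5% to 40.1% in Cebpa_ASKO, and *Cidea* made up 2.68% to 22.7% and 59.7% to 79.4%. The ratio of *Cidec* to *Cidea* was 3.40, 36.4 and 8.04 in Cebpa_fl/fl and 0.258, 0.327 and 0.673 in Cebpa_ASKO, so that it lay above 1 in each control and below 1 in each knockout (two-sided exact permutation p = 0.1, the lower limit). Summed CIDE TPM was 1300.0, 1687 and 1368 in Cebpa_fl/fl and 1104, 954 and 804 in Cebpa_ASKO.

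*Cideb*, known for lipoprotein loading in hepatocytes, was barely detected. It had 110, 10 and 60 estimated counts in Cebpa_fl/fl and 54, 30 and 59 in Cebpa_ASKO, or 0.337 to 2.64 TPM over the 6 libraries. The genotypes overlapped, and the log2 fold change of -0.05 had a 95% confidence interval of -1.87 to 1.77, which leaves room for a change in either direction. The gene lies on chromosome 14 from 55754050 to 55758458 and overlaps *Nop9* on the opposite strand by 1451 bases. *Nop9* had 5.75 to 8.13 TPM. Whether counting used strand is not given in the sources used here, so reads in the shared stretch cannot be told apart. *Plin4* overlaps *Hdgfl2* in the same way by 17 bases, and *Fitm1*, *Fitm2* and *Cidea* overlap non-coding genes of the opposite strand that have no value here.

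**Figure D2:**
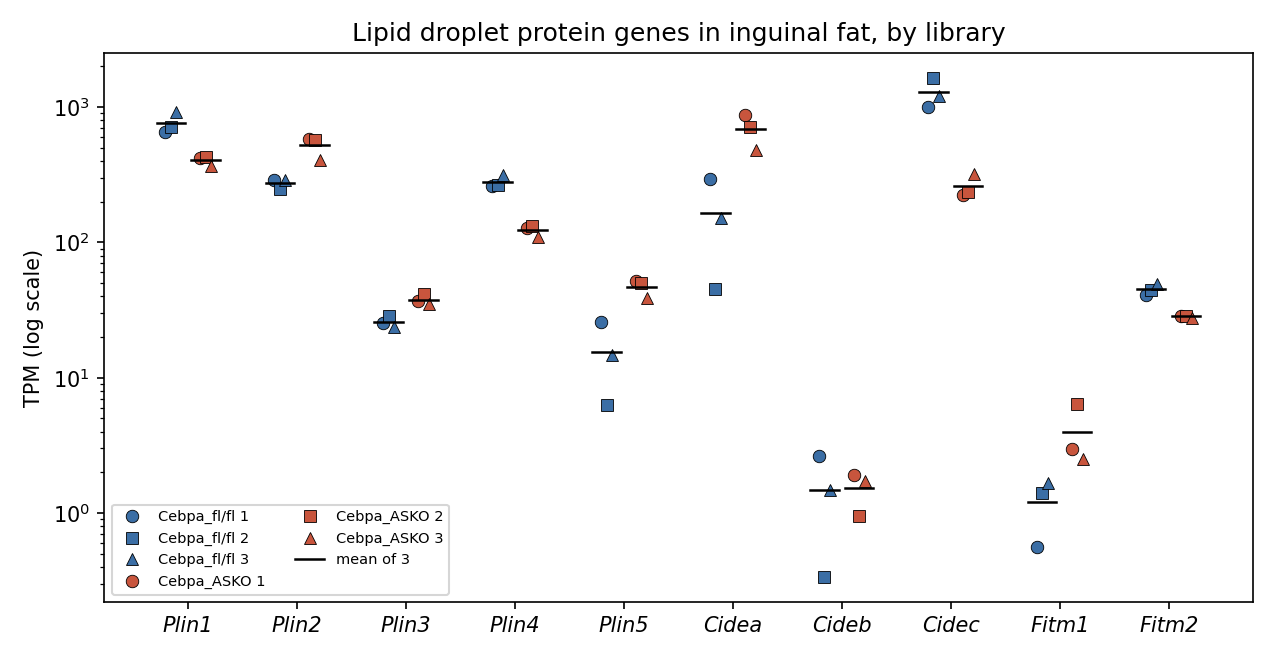
TPM (log scale) of the 10 genes in each library, with Cebpa_fl/fl in blue, Cebpa_ASKO in red and a bar at the mean of 3. *Cidec* and *Plin1* are the highest genes in Cebpa_fl/fl, and *Cidea* and *Plin2* in Cebpa_ASKO.

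Among the perilipins, *Plin1* guards the droplet of the mature adipocyte and, once phosphorylated, lets lipolysis begin. It lies on chromosome 7 from 79720218 to 79732903 on the minus strand. Its level was 651, 710.2 and 919 TPM in Cebpa_fl/fl and 419.5, 428 and 370.0 TPM in Cebpa_ASKO. The genotypes did not overlap, and the knockouts lay close together. *Plin1* fell by 1.12 on the log2 scale (SE 0.18, 95% confidence interval -1.55 to -0.69, adjusted p = 0.0187). The call was lost without Cebpa_ASKO 1 (adjusted p = 0.0656) and without Cebpa_ASKO 2 (adjusted p = 0.0806), with log2 fold changes of -1.23 and -1.16 in those fits.

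The start region of *Plin1* is shown because it was the other window of the group with TTGCNNAA (capitals), here at 2 places. The first stretch ends at the base before the first annotated start, and the second is the 30 bases around the other match, which lies 58 bases before the RefSeq start (both GRCm38.p6, minus strand, 5′ to 3′).
Plin1 before the first start, chr7:79732904-79733026: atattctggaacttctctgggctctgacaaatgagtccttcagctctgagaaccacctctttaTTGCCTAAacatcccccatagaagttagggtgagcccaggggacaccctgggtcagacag
Plin1 around the second match, chr7:79732816-79732845: tctgagaggcaTTGCCCAAgattccctgga
In RefSeq windows of 250 bases before to 50 bases after a start, TTGCNNAA was in 2 of the 11 windows that belong to 9 of the 10 genes and in 10.8% of 32851 windows in all. *Cidea* has no entry in that table. The DR1 element bound by PPARγ with RXR, a direct repeat of the nuclear receptor hexamer with 1 base between the copies, was in 0.0396% of all windows (0.381% when the fourth base of each copy was left free), and in no window of the group. These matches are letters only, and no binding was measured.

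The transcript make-up of *Plin1* also differed. Plin1-206, the longest at 2817 bases, held 65.9%, 71.1% and 62.7% of *Plin1* TPM in Cebpa_fl/fl and 47.9%, 49.6% and 45.2% in Cebpa_ASKO. Its own level fell to 0.384 of the control mean. Plin1-201 and Plin1-202, which encode the same 517 codons as Plin1-206, and Plin1-203, with only 87 codons, were higher in TPM in every Cebpa_ASKO library, at 1.84, 2.00 and 1.71 times the control mean. Each of these 3 held at most 18.7% of *Plin1* TPM in any library. For the shares of these 4 transcripts the genotypes did not overlap (two-sided exact permutation p = 0.1, the lower limit). The incomplete models Plin1-204 and Plin1-205 were lower in every Cebpa_ASKO library, at 0.560 and 0.235 of the control mean. These levels, too, rest on kallisto's division of shared reads.

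*Plin4*, an abundant coat protein of white adipocytes with a long run of repeats, fell by a similar amount. It had 263, 264 and 315 TPM in Cebpa_fl/fl and 128.5, 132 and 109.5 TPM in Cebpa_ASKO. No Cebpa_ASKO library reached the level of a control. *Plin4* fell by 1.24 on the log2 scale (SE 0.172, adjusted p = 0.0105), and the call was lost without Cebpa_ASKO 2 (adjusted p = 0.0570). Its annotated transcripts, Plin4-201 and Plin4-202, differ by 1 base in length and were at 0.402 and 0.483 of their control means.

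*Plin5*, which ties droplets to mitochondria in oxidative tissues, lies beside *Plin4*. *Plin4* is on chromosome 17 from 56100591 to 56109803 and *Plin5* from 56111601 to 56117596, both on the minus strand with 1797 bases between them, and *Plin3* lies on the same chromosome from 56277476 to 56292873. *Plin5* had 25.8, 6.26 and 14.8 TPM in Cebpa_fl/fl and 51.5, 50.1 and 38.9 TPM in Cebpa_ASKO. Each knockout was above each control, whereas for its neighbour *Plin4* each was below. A log2 fold change of 1.50 (95% confidence interval 0.29 to 2.70) did not pass (adjusted p = 0.165). It was 2.13 without Cebpa_fl/fl 1 and 1.09 without Cebpa_fl/fl 2, and not called in either fit. The ratio of *Plin4* to *Plin5* TPM was 10.2, 42.3 and 21.3 in Cebpa_fl/fl and 2.50, 2.64 and 2.82 in Cebpa_ASKO (two-sided exact permutation p = 0.1, the lower limit).

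*Plin2* (adipophilin), the coat of droplets in most other cells and in developing adipocytes, had 288, 249 and 291 TPM in Cebpa_fl/fl and 580.0, 572 and 409.5 TPM in Cebpa_ASKO. The lowest knockout was above the highest control. The log2 fold change was 0.96 (95% confidence interval 0.43 to 1.49, adjusted p = 0.0624). It was called by DESeq2 (adjusted p = 0.000735), with scaling by total counts, with limma on filtered log2 TPM at either pseudocount (1 or 0.1, but not without the filter, adjusted p = 0.0764), and without Cebpa_ASKO 3 (adjusted p = 0.0276). The protein-coding transcript Plin2-201 was at 2.08 times the control mean, and the non-coding Plin2-208 overlapped between the genotypes, with a ratio of 1.05. The gene lies on chromosome 4 from 86648386 to 86670060.

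*Plin3* (TIP47), a perilipin that moves from cytosol to nascent droplets, had the smallest log2 fold change of the 5. It had 25.2, 28.6 and 23.6 TPM in Cebpa_fl/fl and 37.0, 41.5 and 34.9 TPM in Cebpa_ASKO. The groups were close but apart, and the log2 fold change was 0.46 (95% confidence interval 0.20 to 0.72, adjusted p = 0.0653). DESeq2 was the only setting of 17 to call it.

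The perilipins were also compared by their share of the family. Summed perilipin TPM was 1253, 1258 and 1563 in Cebpa_fl/fl and 1216, 1223 and 963 in Cebpa_ASKO. The means were 1358 ± 178 and 1134 ± 148 TPM (SD, n = 3 each), and the nearest values of the genotypes were 1253 and 1223. *Plin1* held 52.0% to 58.8% of it in Cebpa_fl/fl and 34.5% to 38.4% in Cebpa_ASKO, whereas *Plin2* held 18.6% to 23.0% and 42.5% to 47.7%. *Plin4* held 20.7% ± 0.501 and 10.9% ± 0.416 (SD, n = 3 each), and *Plin5* 0.50% to 2.06% and 4.04% to 4.23%. All of these shares were apart (two-sided exact permutation p = 0.1 for each, the lower limit). *Plin1* exceeded *Plin2* in each control, by 2.26 to 3.15 times, and was below it in each knockout, at 0.72 to 0.90 of its level.

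**Figure D3:**
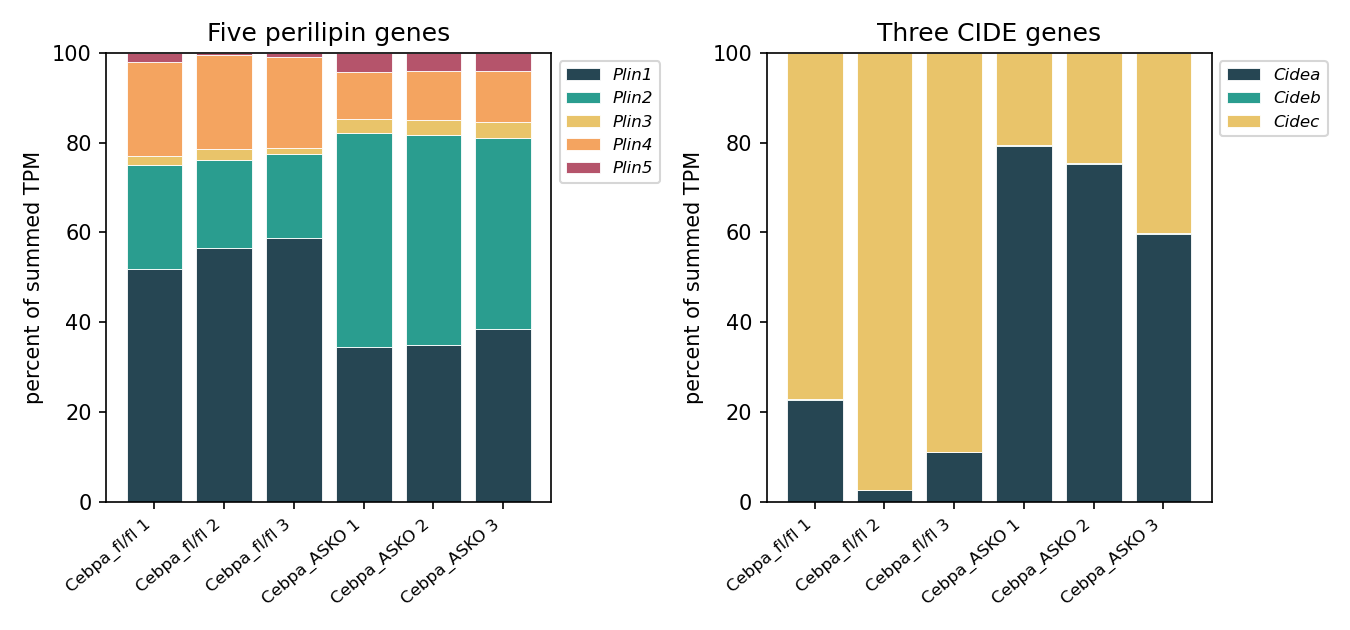
Share (%) of each gene in the summed TPM of its family, perilipins and CIDE proteins, as 1 stacked bar per library. *Plin2* holds 42.5% to 47.7% of the perilipin bars in Cebpa_ASKO, and *Cidea* holds 59.7% to 79.4% of the CIDE bars.

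In the FITM family, *Fitm2*, the form found in fat, which helps triglyceride to enter droplets, was lower. It lies on chromosome 2 from 163466379 to 163472629. Its level was 41.0, 44.9 and 49.1 TPM in Cebpa_fl/fl and 28.7, 28.6 and 27.8 TPM in Cebpa_ASKO. The values within each genotype were close, and the groups did not overlap. *Fitm2* fell by 0.72 on the log2 scale (SE 0.106, adjusted p = 0.0136), and it was not called without Cebpa_ASKO 2 (adjusted p = 0.0632).

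*Fitm1*, the form of skeletal muscle, is on chromosome 14 from 55575617 to 55576954 and had few reads. It had 18, 42 and 52 estimated counts in Cebpa_fl/fl and 66, 154 and 68 in Cebpa_ASKO. In TPM this was 0.564, 1.41 and 1.66 against 2.96, 6.38 and 2.53, with Cebpa_ASKO 2 the highest. The log2 fold change was 1.65 (95% confidence interval 0.46 to 2.84, adjusted p = 0.129), and 1.16 without Cebpa_ASKO 2. Of 16 skeletal muscle markers, 12 were called higher in Cebpa_ASKO, against 1.39% of all genes tested. Their summed level was 0.0706% to 0.0953% of counts in Cebpa_fl/fl and 0.336%, 0.636% and 0.222% in Cebpa_ASKO 1 to 3, so that Cebpa_ASKO 2 was the highest here too. The highest in mean TPM were *Ckm*, *Acta1* and *Myl1*, with *Ckm* at 77.2, 123.7 and 71.9 TPM in Cebpa_fl/fl and 383, 851 and 305 TPM in Cebpa_ASKO. The part of muscle RNA in the *Fitm1* values was not tested.

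**Figure D4:**
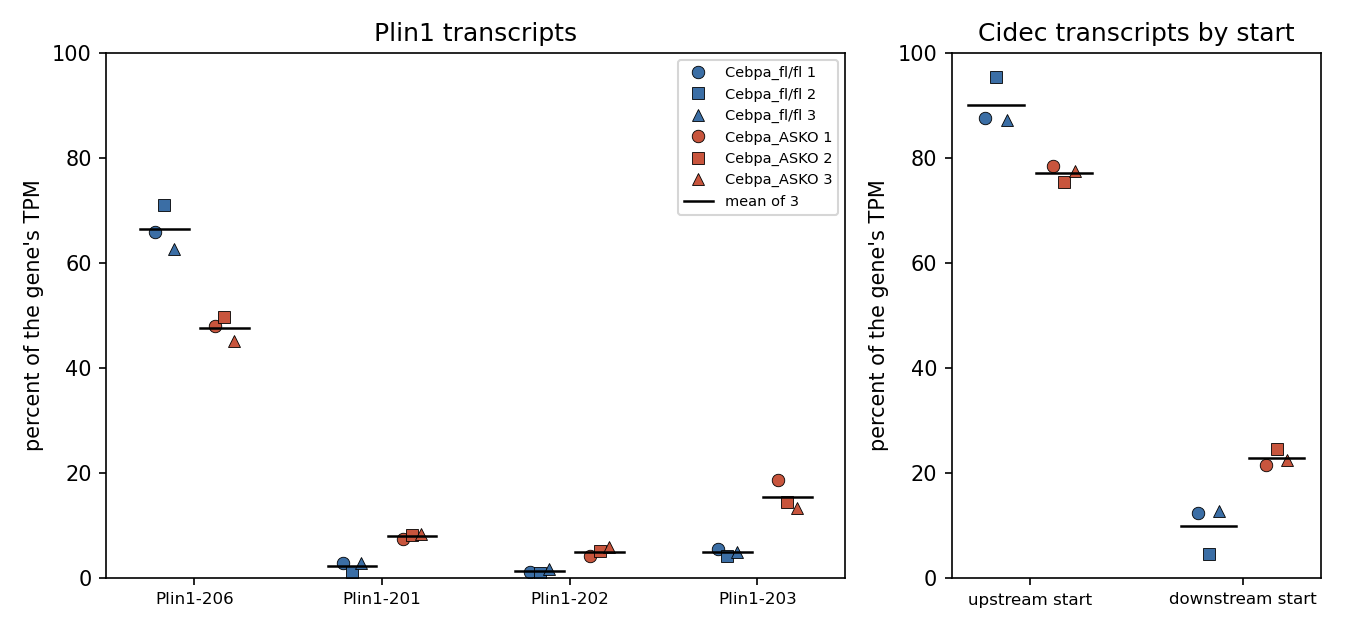
Share (%) of the gene's TPM held by single transcripts or transcript groups in each library. Shown are Plin1-206, Plin1-201, Plin1-202 and Plin1-203, and *Cidec* transcripts summed by upstream and downstream start. The downstream *Cidec* share is higher and the Plin1-206 share lower in each Cebpa_ASKO library than in any Cebpa_fl/fl library.

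Ordered by mean TPM, the group read differently in the genotypes. In Cebpa_fl/fl, *Cidec* (1286 ± 326) was followed by *Plin1* (760.0 ± 140.5), each apart from the next in all libraries. *Plin4* (281 ± 29.4), *Plin2* (276 ± 23.6) and *Cidea* (164 ± 125) overlapped, and *Fitm2* (45.0 ± 4.09), *Plin3* (25.8 ± 2.56) and *Plin5* (15.6 ± 9.81) came below them, with *Cideb* and *Fitm1* the lowest. In Cebpa_ASKO, *Cidea* (692 ± 199.8) was first and overlapped with *Plin2* (520.4 ± 96.1), while *Plin1* (406 ± 31.2) and then *Cidec* (261 ± 53.4) followed in each library (SD, n = 3). *Plin4* came next in Cebpa_ASKO at 123 ± 12.1 TPM. *Plin5* (46.8 ± 6.90) was above *Fitm2* (28.4 ± 0.474) in each knockout library, the reverse of their order in the controls. The 10 genes together had 2594, 2992 and 2981 TPM in Cebpa_fl/fl and 2352, 2212 and 1797 TPM in Cebpa_ASKO.

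*Cidea* and *Plin5* are both used as genes of brown and beige fat, so 14 other markers of these cells were set beside them. Of the 14, 1 was called higher (*S100b*, log2 fold change 3.18, adjusted p = 0.0185) and 0 lower, against 1.39% and 3.84% of all genes tested. The median log2 fold change of the 14 was 0.57, with 9 above 0 and 5 below. Their summed level was 0.0327% to 0.172% of counts in Cebpa_fl/fl and 0.121% to 0.170% in Cebpa_ASKO, and none was at 0. The 3 with the highest mean TPM were *Cox8b*, *Cox7a1* and *Ucp1*. *Ucp1*, the gene of heat production itself, was at 733, 19.4 and 112 CPM in Cebpa_fl/fl and 248, 224 and 181 CPM in Cebpa_ASKO, with overlap. *Cox8b* overlapped as well. *Cox7a1* was at 237, 23.2 and 80.7 TPM in Cebpa_fl/fl and 581, 442 and 328 TPM in Cebpa_ASKO, without overlap and without passing the test (adjusted p = 0.247). *Otop1*, higher in each knockout library, and *Elovl3*, lower in each, did not pass either. *S100b*, *Otop1* and *Elovl3* were chosen after their values were seen. In Cebpa_fl/fl, *Cidea*, *Plin5*, *Ucp1*, *Cox7a1*, *Otop1* and *Elovl3* were each highest in library 1 and lowest in library 2. Among the rest of the 10 genes, *Cideb* (2.45, 0.212 and 1.27 CPM in libraries 1 to 3) and *Plin2* (375, 277 and 358 CPM) had the same order. *Plin1*, *Plin3*, *Plin4*, *Cidec*, *Fitm1* and *Fitm2* did not have it in CPM. The share of all genes with this order was not computed. Skeletal muscle markers also summed to more in each Cebpa_ASKO library (0.222% to 0.636% of counts) than in any Cebpa_fl/fl library (0.0706% to 0.0953%). The parts of beige adipocyte content and of muscle RNA in the *Cidea*, *Plin5* and *Cox7a1* values were not tested.

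**Figure D5:**
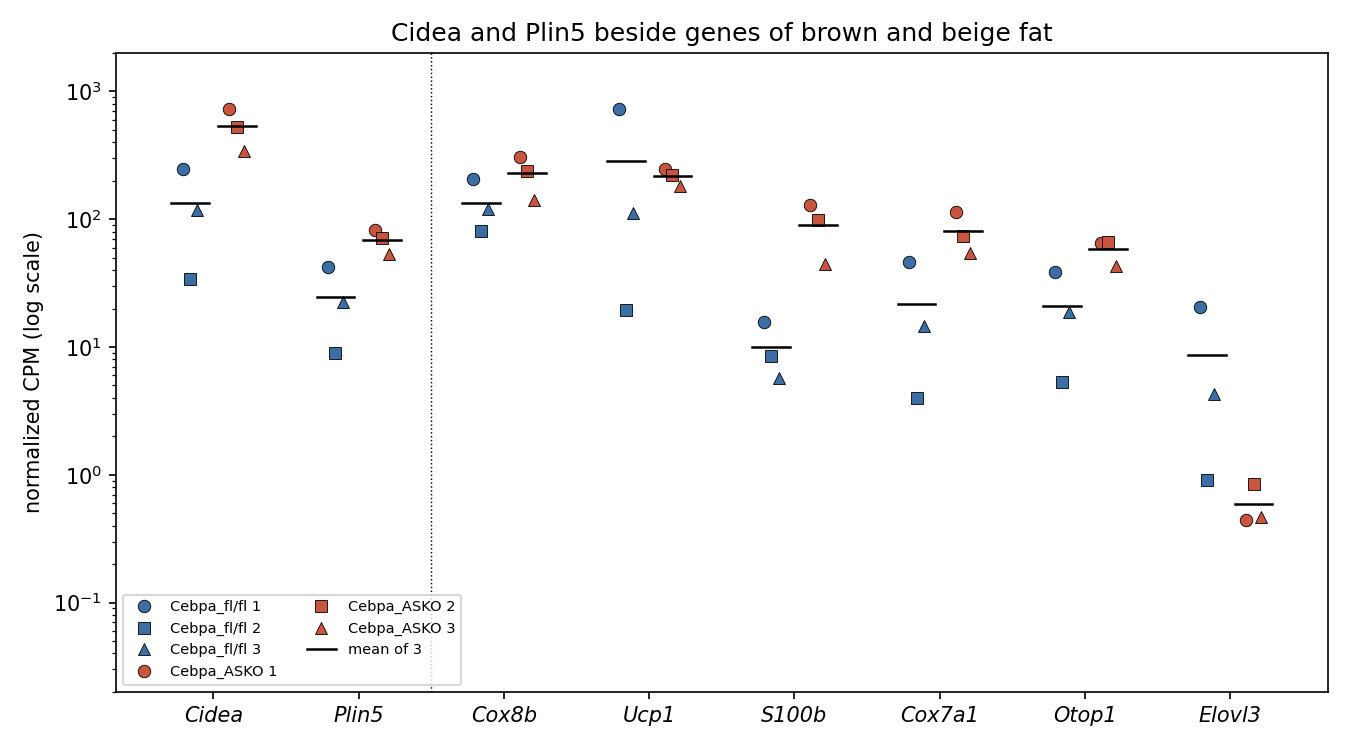
Normalised CPM (log scale) of *Cidea* and *Plin5* and, right of the dotted line, of 6 brown and beige fat genes in each library, with bars at the mean of 3. *Cidea* and *Plin5* are apart between the genotypes, while *Ucp1* ranges from 19.4 to 733 CPM within Cebpa_fl/fl.

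*Plin2* is also expressed by macrophages and mammary epithelium, which iWAT of female mice contains. Of 10 macrophage markers none was called, and 2 had an unadjusted p below 0.05, as did 19.8% of all genes tested. The macrophage sum was 0.0912% to 0.211% of counts in Cebpa_fl/fl and 0.142% to 0.172% in Cebpa_ASKO, led in TPM by *Lyz2*, *Cd9* and *Cd68*, and it overlapped. Of 11 mammary epithelium markers tested none was called, and 6 had an unadjusted p below 0.05, against the same 19.8%. The mammary sum was 0.0821% to 0.200% of counts in Cebpa_fl/fl and 0.246% to 0.258% in Cebpa_ASKO, led in TPM by *Krt18*, *Krt8* and *Csn3*, while the milk protein gene *Wap*, also named after its values were seen, had 0 counts in 5 of the 6 libraries and 1 in Cebpa_ASKO 1. Its part in the *Plin2* values was not tested.

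Other proteins of lipid droplets and their lipases were compared with the group. Of 30 such genes, all tested, 9 were called lower and 1 higher, against 3.84% and 1.39% of all genes tested. Leaving out 1 library gave 3 to 9 called lower. Their median log2 fold change was -0.37 with all libraries. Among proteins that build droplets, *Bscl2* (seipin), which shapes the neck of a budding droplet, fell from 239 ± 30.3 to 73.1 ± 9.52 TPM (SD over 3 libraries) and by 1.73 on the log2 scale. *Dgat2*, which makes triglyceride, had a log2 fold change of -2.01, and *Cav1*, the caveolin of the adipocyte surface, -1.12. *Clstn3*, whose adipocyte form limits droplet expansion, had -1.51 over all its transcripts together, and that form was not counted apart. Among genes of lipolysis, *Abhd5* (CGI-58), the co-activator that *Plin1* holds back, fell from 80.9 ± 10.6 to 35.8 ± 4.12 TPM, a log2 fold change of -1.15, and *Mgll*, the last lipase of the chain, had -1.30. *Pnpla3*, *Ldah* and *Mettl7a1* were the remaining falls, at -1.87, -0.59 and -1.09. *Acsl3*, which activates fatty acids at new droplets, was the 1 rise, at 0.61 (adjusted p = 0.0395). *Bscl2*, *Abhd5* and *Mgll* were called in all 17 settings, *Dgat2*, *Pnpla3* and *Mettl7a1* in 10 and *Acsl3* in 7.

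The main lipases did not pass in the main edgeR fit, and DESeq2 called both lower. *Pnpla2* (ATGL), which cuts the first fatty acid from triglyceride, had 972, 1349 and 1159 TPM in Cebpa_fl/fl and 733, 628 and 750.5 TPM in Cebpa_ASKO, with a log2 fold change of -0.79 (adjusted p = 0.0522), and it was called in 3 of 17 settings. *Lipe* (hormone-sensitive lipase) had a log2 fold change of -0.53 (adjusted p = 0.191), with DESeq2 as the 1 setting that called it. Neither gene overlapped between the genotypes. The ATGL inhibitors were *G0s2*, at -0.26 with overlap (adjusted p = 0.850, and between -0.60 and 0.16 over the settings tried), and *Hilpda*, at 0.66 without overlap (adjusted p = 0.138). *G0s2* had 115 TPM in Cebpa_ASKO 3 against 398 to 538.5 TPM in the other 5 libraries.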

How the data were processed

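Bulk RNA-seq of whole iWAT was analysed, with genotype and replicate number taken from the sample labels. The authors deposited, per library, an estimated count and a TPM value for each transcript, and a TPM table per gene symbol. The submitters' processing notes name kallisto 0.44.0 and the builds GRCm38.p6 and GRCh38.p12, without their roles. The transcript annotation and strandedness are not given in the sources used here. The study's text names DESeq2 for the differential test.

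Estimated counts of the 116816 of 118489 transcripts that matched GENCODE M21 (GRCm38) were summed per symbol and rounded, and the sums covered the authors' TPM of all 10 genes. Genotypes were compared with edgeR (TMM, default filter, quasi-likelihood test, Benjamini-Hochberg adjustment over 16069 genes), and genes with an adjusted p below 0.05 were called. Levels of different genes were compared in TPM only. Shares and ratios were tested by exact two-sided permutation over 20 arrangements, with a smallest p of 0.1. Each library is 1 mouse, and replicates of a genotype differed by more than sampling noise (chi-square over its degrees of freedom between 27.1 and 240).

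Alternatives were DESeq2, other scalings and filters, a length offset, limma on log2 TPM with pseudocounts of 1 and 0.1 (which understate changes of low genes), a block on replicate number, a minimum absolute log2 change of 1, and each library left out in turn. The genes, lists and tests were chosen with earlier results of these data known. Named genes were the 10 genes, *Cebpa*, called genes of the other lipid droplet list with *Pnpla2*, *Lipe*, *Abhd5*, *G0s2*, *Hilpda* and *Bscl2*, up to 3 markers per list with the highest mean TPM, and overlapping or neighbouring genes. *S100b*, *Otop1*, *Elovl3* and *Wap* fall outside that rule. Of 6 hepatocyte markers tested 3 were called lower, and of 6 endothelial markers 1, against 3.84% of all genes tested. The hepatocyte sum was 0.156% to 0.297% of counts in Cebpa_fl/fl and 0.0276% to 0.0760% in Cebpa_ASKO. Of 7 lymphocyte and 7 fibroblast and progenitor markers none was called. The procedure was tested on simulated counts. Software was Python 3.11.15 (pandas 2.3.3, scipy 1.17.1, matplotlib 3.10.9) and R 4.3.3 (DESeq2 1.42.0, edgeR 4.0.16, limma 3.58.1).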

Additional observations from a re-analysis of the deposited data

How the results depend on the processing

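Of the 10 lipid droplet genes, 4 were called lower, and with the replicate number as a block 1 was (*Cidec*). Leaving out 1 library gave 1 to 4, with 1 without Cebpa_ASKO 2. None was called higher, against 4 with DESeq2, 1 with scaling by total counts, 1 with limma on log2(TPM + 1), 1 with limma on log2(TPM + 0.1), and 0 to 1 when 1 library was left out (1 without Cebpa_ASKO 3). Of the other 30 lipid droplet genes, 9 were called lower, against 4 with unfiltered limma, 4 with the block and 3 to 9 without 1 library (5 without Cebpa_fl/fl 3, 4 without Cebpa_ASKO 1 and 3 without Cebpa_ASKO 2). The 1 called higher became 2 with DESeq2 and 0 with the length offset, unfiltered limma, the block or a minimum absolute log2 change of 1, and 0 to 1 without 1 library (0 without Cebpa_fl/fl 1, Cebpa_fl/fl 3, Cebpa_ASKO 1 or Cebpa_ASKO 2). All genes called numbered 840, against 1813 with DESeq2, 359 with unfiltered limma, 370 with the block, 495 with that minimum change, and 311 to 922 without 1 library (508 without Cebpa_fl/fl 1, 502 without Cebpa_fl/fl 3, 311 without Cebpa_ASKO 1 and 363 without Cebpa_ASKO 2). Of all calls 26.6% were higher, and with DESeq2 37.3%. *Cideb* changed sign, to 0.00201 with scaling by total counts, 0.12 with limma on log2(TPM + 1) with or without a filter, 0.35 on log2(TPM + 0.1) and 0.34 with the block, and it ranged from -0.57 to 0.76 without 1 library. The other 9 genes kept their direction in all 17 settings. With unfiltered limma *Plin1* had an adjusted p of 0.0700. With the block the adjusted p-values were 0.103 for *Plin1*, 0.0723 for *Plin4* and 0.0757 for *Fitm2*. Deviations of same-numbered libraries from their genotype mean correlated at 0.12, -0.03 and -0.28, and those of differently numbered libraries at -0.22 to 0.22. With 3 libraries per genotype these values are tied to each other, so they cannot show whether the numbers pair the mice. Shares by CPM moved the *Plin1* difference from -19.8 to -12.2 percentage points and that of *Plin4* from -9.80 to -15.2, with the same sign. Unlike TPM, CPM does not correct for transcript length, so genes with long transcripts weigh more in shares by CPM. Plin4-201 has 5755 bases and Plin1-206 has 2817. *Cideb* and *Fitm1* had at most 110 and 154 counts in a library, and depth was not tested apart from the spread between mice.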
